A study of Zea mays with 36 samples.

Results

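The nfd genes of maize were followed in shoot apical meristems of rgd2-R mutant and non-mutant seedlings. They were taken as every gene whose symbol or synonym is nfd with a number, which gave 5 of the 766 genes named on the arrays. These are nfd101, nfd102 (also HMGe), nfd104 (also hmg2), nfd106 and nfd110 (also ssrp1). Together they have 24 of the 1800 named probes on the SAM1 array and 10 of the 1159 on the SAM3 array, where nfd102 has none. The genes were found by symbol, but they were proposed with the measured rgd2-R to non-mutant ratios of these arrays known, and so were in effect selected on them. Those ratios are therefore a description. Counts of nfd probes past a threshold of the fit over all probes are printed beside the same share of all probes, and are no test of the nfd genes.

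Both groups are meristem cells of maize seedlings, collected by laser microdissection 14 days after germination. The rgd2-R group carries the mutation after 5 generations of introgression into the inbred line Mo17, and the non-mutant group grew under the same condition. The labels do not say whether the non-mutant plants were siblings of the mutants, nor how many plants were pooled. Each of the 6 biological replicates per array set amplified RNA of both genotypes against each other in 1 hybridisation. The mutant RNA carried Cy3 in the first 3 replicates and Cy5 in replicates 4 to 6. Each hybridisation was read at a low, a mid and a high setting. The ragged seedling2 gene encodes an ARGONAUTE protein of the trans-acting small RNA pathway, which acts in the development of flat leaves. No probe was named as this gene, so it gives no check of the labels.

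High mobility group (HMG) proteins are small, abundant chromatin proteins that bend or loosen DNA and so change how nucleosomes and transcription factors reach it. In plants the HMG-box class binds DNA with little sequence preference, and its members can be abundant in dividing tissue such as the meristem, the source of all organs of the shoot. SSRP1, the protein of nfd110, has an HMG box too. It is a subunit of the FACT complex, which takes nucleosomes apart and puts them back while RNA polymerase passes. The files pair nfd101 and nfd106 with their symbols alone, so their place among HMG-box genes is background and was not read from these data.

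A ratio is the log2 of the rgd2-R signal divided by the non-mutant signal, after background correction and normalization, averaged over the low, mid and high readings of a replicate. A gene's value is the mean over its probes, and an SD is over 6 replicates. Where a replicate is left out, the value is the mean of the averages of the 2 dye orientations, not of the remaining replicates. Probe by probe, the signal of the nfd101 probes on SAM1 was 5.95 to 198 times the local background in rgd2-R and 4.79 to 146 times in non-mutant, as medians over 18 readings. For nfd106 it was 2.58 to 10.4 times in rgd2-R and 2.12 to 9.81 times in non-mutant. The weakest was nfd106 probe 6809, which was over 2 times background in 10 of 18 readings of rgd2-R and 12 of 18 of non-mutant. No nfd probe was saturated.

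On SAM1 the probes of nfd101 and nfd106 lay on the higher side for rgd2-R, by small amounts. Averaged over 9 probes each, nfd101 stood at 0.24 ± 0.31 and nfd106 at 0.25 ± 0.19 (SD, n = 6), which is 1.19-fold for both. The mean of nfd101 was smaller than its SD between replicates. Over all 5 genes, 23 of 24 probes were above 0, with a median of 0.24. Among all 19200 SAM1 probes 51.2% were above 0, with a median of 0.003. In limma, 0 of the 24 probes reached a Benjamini-Hochberg adjusted p under 0.05, and of all SAM1 probes 0% did. At an unadjusted p under 0.05, 11 of the 24 were higher, beside 6.68% of all probes, and 0 were lower, beside 8.12%. All 6 replicates were above 0 for 5 of the 24, beside 3.11% of all probes. Because the genes were proposed from this contrast, nothing is read from these counts.

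**Figure D1:**
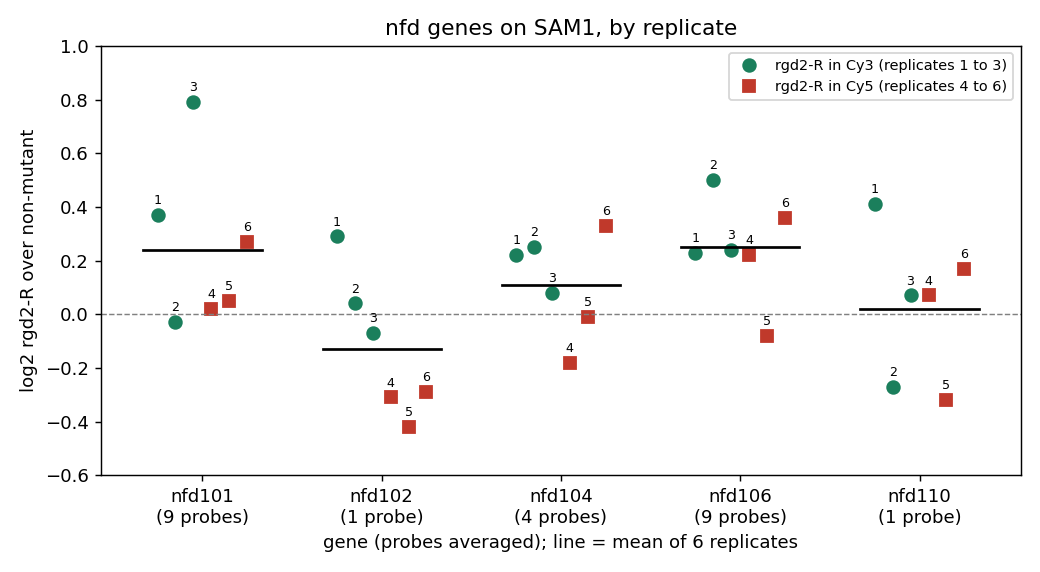
Log2 ratio of rgd2-R over non-mutant on SAM1 for the 5 nfd genes. Each point is a replicate with the probes of the gene averaged and is marked with its number, circles have rgd2-R in Cy3 and squares have it in Cy5, and the line is the mean. Replicate 3 of nfd101 stands at 0.79, above its other replicates, and replicate 5 of nfd106 at -0.08 is its only value below 0.

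nfd101 was uneven between replicates. Its 6 values were 0.37, -0.03, 0.79, 0.02, 0.05 and 0.27 for replicates 1 to 6, so 5 of 6 were above 0 and replicates 2, 4 and 5 lay close to 0. Replicates with rgd2-R in Cy3 averaged 0.38 and those with rgd2-R in Cy5 averaged 0.11. Without replicate 3 the gene value was 0.14, and its probes ran from 0.02 to 0.21 instead of 0.00 to 0.36. The readings within a replicate differed by far less than the replicates did, at most 0.14 for nfd101 and nfd106 on SAM1.

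As normalized log2 intensity, nfd101 averaged 12.16 ± 0.22 in rgd2-R and 11.92 ± 0.28 in non-mutant (SD, n = 6). Its levels were 12.31, 12.24, 12.37, 12.24, 11.79 and 12.03 in rgd2-R, replicates 1 to 6. In non-mutant they were 11.93, 12.27, 11.58, 12.22, 11.74 and 11.76. The ranges of the genotypes overlap. In replicate 3, rgd2-R had its highest level and non-mutant its lowest.

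The 9 nfd101 probes agreed in replicate 1, where they spanned 0.28 to 0.51, and spread most in replicate 3, where they spanned 0.17 to 1.31. Probe 14142 gave the highest mean, 0.36 (SE 0.14), with replicates at 0.51, 0.13, 1.31, -0.03, -0.03 and 0.27. This mean comes mostly from the Cy3 replicates, which averaged 0.65 against 0.07 for the Cy5 replicates. Probe 4512 gave 0.33 (SE 0.11) and probe 85 gave 0.24 (SE 0.07), and these were the nfd101 probes above 0 in 6 of 6 replicates. Probe 17749 gave 0.23 (SE 0.17) with replicate 2 at -0.47 and replicate 3 at 1.00. Probes 449, 7731, 9324 and 7434 gave 0.24 to 0.29, each with its highest value in replicate 3. Probe 227 stood apart from the other 8 with a mean of 0.00 (SE 0.08). Its replicates 1 to 3 were 0.28, 0.29 and 0.17, and its replicates 4 to 6 were -0.50, 0.08 and -0.29.

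nfd106 was more even. Its values were 0.23, 0.50, 0.24, 0.22, -0.08 and 0.36 for replicates 1 to 6, with 5 of 6 above 0. Replicates with rgd2-R in Cy3 averaged 0.33 and those with rgd2-R in Cy5 averaged 0.17. Its mean was larger than its SD between replicates, and leaving out any replicate gave 0.20 to 0.31.

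The level of nfd106 averaged 9.52 ± 0.30 in rgd2-R and 9.27 ± 0.24 in non-mutant (SD, n = 6, log2 intensity). By replicate, 1 to 6, it was 9.75, 9.44, 9.77, 9.56, 8.97 and 9.63 in rgd2-R. In non-mutant it was 9.52, 8.94, 9.53, 9.33, 9.04 and 9.27. Within a genotype the levels of different hybridisations lay further apart than the genotype means, and the ranges of the genotypes overlap.

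**Figure D2:**
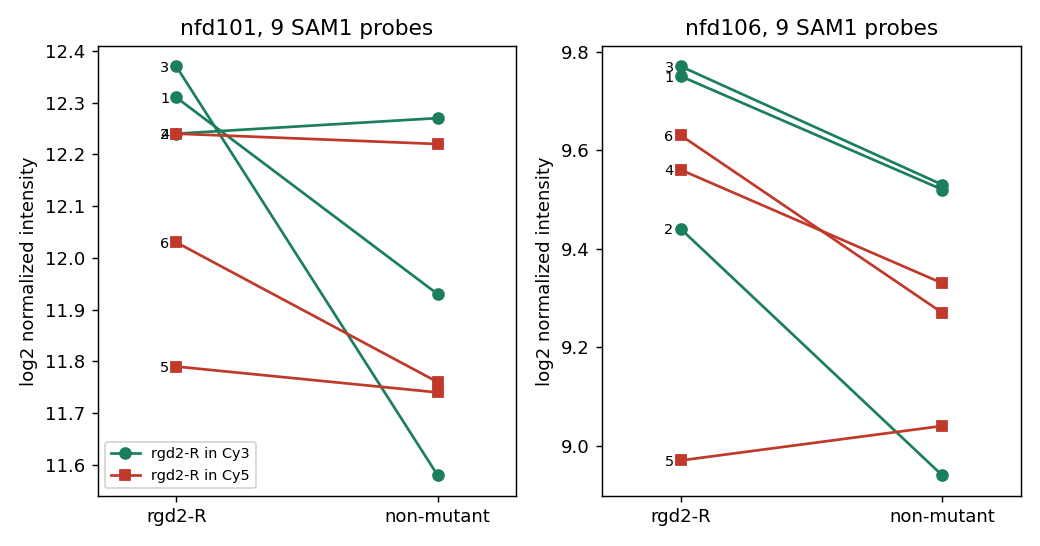
Normalized log2 intensity of nfd101 and nfd106 on SAM1, averaged over 9 probes each, in rgd2-R (left of each panel) and non-mutant (right). Lines join both genotypes of a hybridisation and are marked with the replicate number. Replicate 2 of nfd101 and replicate 5 of nfd106 run the other way from the rest.

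All 9 nfd106 probes had means above 0, from 0.14 to 0.34. Probe 9304 gave the highest, 0.34 (SE 0.08), with replicates at 0.25, 0.62, 0.60, 0.07, 0.07 and 0.41. Probe 12416 gave 0.29 (SE 0.06) and had the smallest SD of the 9, 0.12, with replicates at 0.32, 0.49, 0.25, 0.28, 0.13 and 0.26. Probes 7304 and 4597 gave 0.31 (SE 0.09) and 0.29 (SE 0.09), each below 0 in replicate 5 and above 0 in the other 5 replicates. Probes 6195, 12552 and 2086 gave 0.24, 0.24 and 0.16. The faint probe 6809 was also above 0 in 6 of 6 replicates, with a mean of 0.14 (SE 0.06). Over all SAM1 probes replicate 5 stood apart, with correlations of 0.248 to 0.272 between its readings, while those of the other replicates were 0.651 to 0.81. It ran at -0.094, -0.176, 0.0297, 0.132 and 0.252 with replicates 1, 2, 3, 4 and 6. For nfd106 its low, mid and high readings lay close together, at -0.06, -0.12 and -0.05. Without replicate 5 nfd106 was at 0.31. For nfd106 it was the low one for most probes, down to -0.31 for probe 7707, whose other replicates were 0.41, 0.59, -0.13, 0.40 and 0.38. Replicate 2, where nfd106 was highest at 0.50, ran at 0.386, 0.114, -0.0307, -0.176 and 0.0382 with replicates 1, 3, 4, 5 and 6. Without replicate 2 nfd106 was at 0.20.

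**Figure D3:**
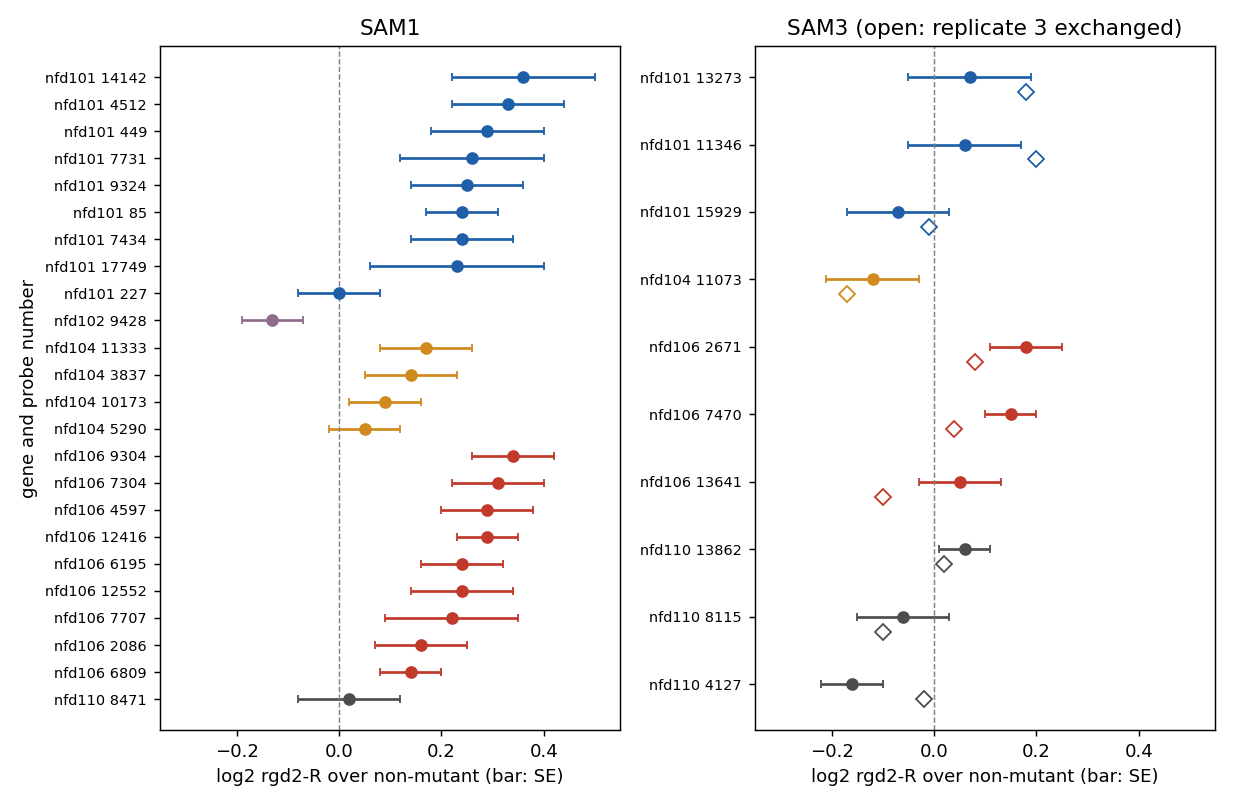
Mean log2 ratio of rgd2-R over non-mutant for every nfd probe on SAM1 (left) and SAM3 (right), with bars for the limma standard error. Filled points use the dyes as labelled, and open diamonds on SAM3 have the low and mid readings of replicate 3 exchanged. The nfd106 probes on SAM1 run from 0.14 to 0.34, while on SAM3 the diamonds lie at -0.10 to 0.08.

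The remaining genes had lower values on SAM1. nfd104, an HMG-box gene, gave 0.11 ± 0.19 (SD, n = 6) over 4 probes, with replicates at 0.22, 0.25, 0.08, -0.18, -0.01 and 0.33, and its probes ran from 0.05 to 0.17. Without replicate 6 it was 0.04 and without replicate 4 it was 0.17. All 4 probes were below 0 in replicate 4, from -0.26 to -0.04, but probe 11333 was lower in replicate 5, at -0.09. Its level averaged 10.38 ± 0.29 in rgd2-R and 10.27 ± 0.24 in non-mutant (log2 intensity). nfd102 was the only nfd gene with a mean below 0, -0.13 ± 0.27, from 1 probe. Its replicates were 0.29, 0.04 and -0.07 with rgd2-R in Cy3 and -0.31, -0.42 and -0.29 with rgd2-R in Cy5, so the dye orientations do not overlap. The FACT gene nfd110, also with 1 probe, gave 0.02 ± 0.28, with replicates at 0.41, -0.27, 0.07, 0.07, -0.32 and 0.17 on both sides of 0.

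The direction of SAM3 is not settled for 1 replicate. In replicate 3 the high reading ran opposite to the low and mid readings, with correlations of -0.911 and -0.909 over all probes. The background of the low and mid readings was 19 and 30 units in Cy3 and 157 and 210 in Cy5, and that of the high reading was 520 in Cy3 and 46 in Cy5. The readings of the other replicates had 69 to 349 in Cy3 and 14 to 84 in Cy5. The labels name the same dyes for all 3 readings. With the low and mid readings exchanged, the correlation of replicate 3 over all probes was 0.62 with replicate 1, 0.159 with replicate 4 and 0.247 with replicate 6, against -0.544, -0.142 and -0.221 as labelled. It was -0.343 with replicate 2 and -0.181 with replicate 5, against 0.305 and 0.151 as labelled. Values with replicate 2 turned as well are also given, a setting chosen from these correlations alone. No label calls for it, and the readings of replicate 2 correlated at 0.526 to 0.567 with each other. Replicate 5, also negative with the exchanged replicate 3, was left as labelled.

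On SAM3, nfd106 stood at 0.13 ± 0.08 (SD, n = 6) over 3 probes with the dyes as labelled. Its replicates were -0.01, 0.19, 0.19, 0.12, 0.08 and 0.20. The third of these averages readings of 0.62, 0.46 and -0.51, and becomes -0.53 after the exchange. The gene value was then 0.01, and -0.05 with replicate 2 turned too. Without replicate 3 it was 0.11. As labelled, probe 2671 gave 0.18 (SE 0.07), probe 7470 gave 0.15 (SE 0.05) and was above 0 in 6 of 6 replicates, and probe 13641 gave 0.05 (SE 0.08). After the exchange they gave 0.08, 0.04 and -0.10, with replicate 3 at -0.39, -0.50 and -0.70. The small spread as labelled therefore includes a replicate whose own readings differ by 1.13.

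nfd101 on SAM3 gave 0.02 ± 0.28 (SD, n = 6) as labelled, from replicates at 0.02, -0.16, -0.18, 0.42, -0.28 and 0.29. Its replicate 3 averages readings of -0.53, -0.42 and 0.41, and becomes 0.45 after the exchange. With the exchange the gene value was 0.12, with replicate 2 turned as well 0.18, and without replicate 3 it was 0.04. The order of the pair thus depends on the direction taken, with nfd106 above nfd101 as labelled and below it after the exchange. Within nfd101 as labelled, probes 13273 and 11346 gave 0.07 (SE 0.12) and 0.06 (SE 0.11), and probe 15929 gave -0.07 (SE 0.10). After the exchange they gave 0.18, 0.20 and -0.01.

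**Figure D4:**
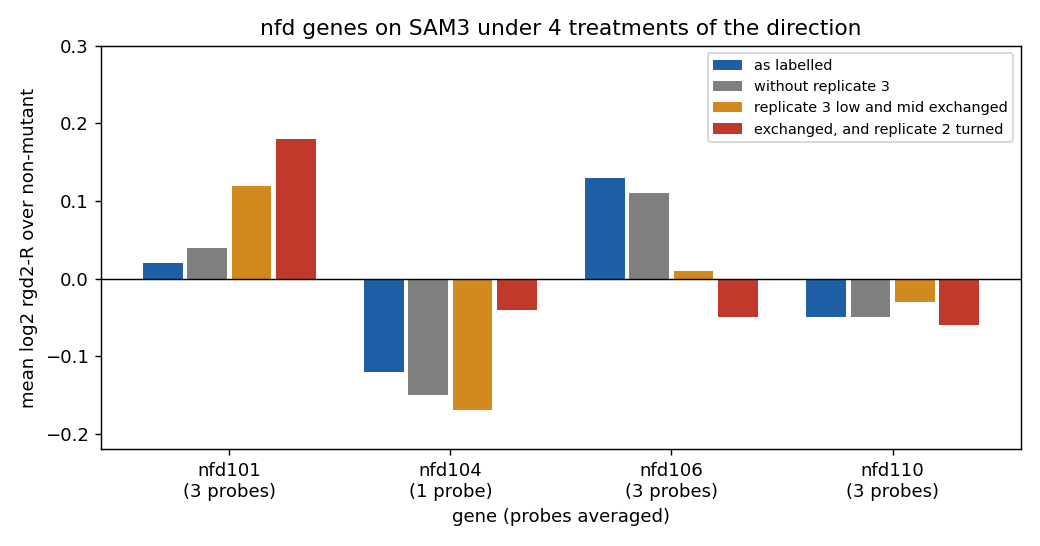
Mean log2 ratio of rgd2-R over non-mutant on SAM3 for the 4 nfd genes present there, with the dyes as labelled, without replicate 3, with the low and mid readings of replicate 3 exchanged, and with replicate 2 turned as well. nfd106 runs from 0.13 as labelled to -0.05, and nfd101 from 0.02 to 0.18. The last setting was chosen from correlations between replicates, not from a label.

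nfd104 had 1 SAM3 probe at -0.12 ± 0.27 (SD, n = 6) as labelled, -0.17 after the exchange and -0.04 with replicate 2 turned as well. Without replicate 2 it was -0.03, and without replicate 1 it was -0.19. nfd110 gave -0.05 ± 0.13 over 3 probes, -0.03 after the exchange and -0.06 with replicate 2 turned. Of these, probes 4127 and 13862 carry the same clone sequence and gave -0.16 (SE 0.06) and 0.06 (SE 0.05). The difference between copies of 1 sequence, 1 of them faint with 10 of 18 readings over 2 times background in each genotype, is as large as most gene values on this array. Probe 8115 matches the clone of the SAM1 probe 8471, and they gave -0.06 (SE 0.09) and 0.02 (SE 0.10).

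Over the 10 SAM3 probes, 6 were above 0 as labelled with a median of 0.05, while 48.6% of all 16000 probes were. After the exchange 5 were above 0, and 4 with replicate 2 turned as well, where the medians of all probes were 0.002 and -0.003. The share of all probes above 0 in these settings was not computed, so nothing is read from these counts. In limma 0 of the 10 were called at an adjusted p under 0.05, beside 0% of all SAM3 probes. At an unadjusted p under 0.05, 2 were higher, beside 2.99% of all probes, and 1 was lower, beside 3.59%. After the exchange 0 were higher, beside 2.62% of all probes, and 0 were lower, beside 4.79%. With replicate 2 turned as well, 1 was higher and 0 were lower. In that setting 2664 of all 16000 probes were under 0.05 in either direction, against 1185 with the exchange alone. Shares by direction were not computed for it, so nothing is read from its counts. All 6 replicates were above 0 as labelled for 1 of the 10 probes, beside 1.54% of all.

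Across the 6 SAM1 replicates, nfd101 and nfd106 did not move together, with a Pearson correlation of -0.01. The named genes most like nfd101 among 582 were cenH3, the centromeric histone H3 (r = 0.97), rs2, a MYB gene that keeps knox genes off in leaves (r = 0.96), rld1, an HD-ZIP III gene of the upper leaf side (r = 0.95), the YABBY gene yab14 (r = 0.94) and the GTPase gene rop4 (r = 0.92). These values rest on 6 hybridisations that all genes share. Without replicate 3 they were 0.92, 0.84, 0.76, 0.77 and 0.70. Those most like nfd106 were sgb101 (r = 0.98), LOC541617 (r = 0.97), the ethylene receptor gene etr2, the pyruvate dehydrogenase gene pdh1 and DBP1a (r = 0.94 for each). The highest r was 0.97 for nfd102, 0.92 for nfd104 and 0.95 for nfd110, so values of this size are not particular to nfd101. On SAM3 as labelled, other genes were most like nfd101 among 597. They were kin15 (r = 0.96), LOC100101528 (r = 0.95), copz2 and gst9 (r = 0.94 for each) and LOC542037 (r = 0.92).

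Genes of young leaf primordia stood far from 0 in the same replicate in which nfd101 was highest. rs2, ns2, yab9, yab10 and yab14, a list added after the values were seen, ran from 1.45 to 1.87 in SAM1 replicate 3 and from -0.40 to 0.57 in the other 5 replicates. Their summed signal was 3250 to 17800 in rgd2-R and 3090 to 5590 in non-mutant, higher in rgd2-R in 5 of 6 replicates, and each of the 5 lay at or above percentile 60.7 of brightness on the array. cenH3 was at 0.84 in replicate 3. nfd106 was at 0.24 there, near its mean. On SAM3 the 7 genes of that list had a median of 0.12 as labelled and 0.19 after the exchange. The part of these genes in the nfd101 value was not tested. In captures of many cells, more cells of a type and more RNA per cell cannot be told apart.

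**Figure D5:**
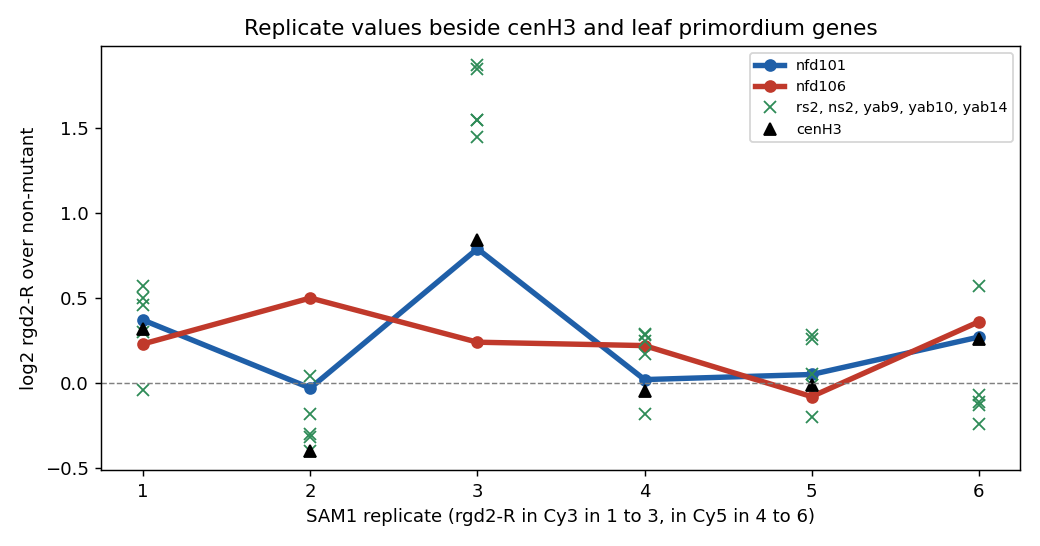
Log2 ratio of rgd2-R over non-mutant in each SAM1 replicate for nfd101 and nfd106 (lines), 5 leaf primordium genes (crosses) and cenH3 (triangles). In replicate 3 the leaf genes lie at 1.45 to 1.87, nfd101 at 0.79, cenH3 at 0.84 and nfd106 at 0.24.

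Other chromatin genes are set out for SAM1 first. Of 5 histone genes, 4 were above 0 with a median of 0.08. They ran from -0.03 for the linker histone gene his1a and 0.04 for hon101 to 0.11 for the core histone gene his2b5 and 0.16 for cenH3. Of 25 other chromatin genes, 13 were above 0 with a median of 0.00, beside 50.9% and a median of 0.002 for all 583 named genes. Highest among them were the histone deacetylase gene hda106 at 0.21 and the DNA methyltransferase gene met2 at 0.16, and lowest were the acetyltransferase gene hac106 at -0.21 and the methyl-CpG-binding gene mbd101 at -0.15. hmg3, an HMG gene without an nfd symbol, gave 0.12 ± 0.22 (SD, n = 6) over 3 probes.

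Genes of DNA replication and of cell cycle control form the replication list, and their products act in dividing cells. On SAM1, 6 of 8 were above 0 with a median of 0.05. The replication genes MCM6 and MCM7 gave 0.10 and 0.12, and the cell cycle genes rbr3, cyc3 and cdc2 gave -0.00, 0.00 and 0.00. The list ran from -0.11 for the cyclin gene cyc1 to 0.17 for pcna2 and 0.22 for pcna1, which encode the sliding clamp of DNA polymerase.

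On SAM3, values of these lists are given as labelled and then after the exchange. Of 4 histone genes, 1 was above 0 in both, with medians of -0.04 and -0.13. Of 39 other chromatin genes, 16 were above 0 as labelled and 8 after the exchange, with medians of -0.01 and -0.05. All 598 named genes there had 49.0% above 0 as labelled, with medians of -0.001 and -0.014. Their share above 0 after the exchange was not computed, so nothing is read from the gene counts after it. Of the chromatin genes the lowest as labelled were nfc102 at -0.25 and nfc101 at -0.22, which gave -0.44 and -0.24 after the exchange, when SDG123 and hac106 at -0.33 and -0.31 lay below nfc101. The highest as labelled were nfa104 and the histone deacetylase gene rpd3, each at 0.12, which gave -0.00 and -0.03 after the exchange. Highest after it were vef101 at 0.24 and sdg113 at 0.10, which stood at -0.03 and -0.15 as labelled. Of the 10 genes of DNA replication and cell cycle control, 6 were above 0 as labelled and 7 after the exchange, with medians of 0.02 and 0.03. The highest as labelled were MCM6, a subunit of the replicative helicase, at 0.21 and 0.18, and pcna2 at 0.19 and 0.04. After the exchange rbr3 was highest, at 0.26, against 0.12 as labelled. The lowest as labelled were the retinoblastoma-related gene rrb2 at -0.25 and -0.16, and orc3, a subunit of the origin recognition complex, at -0.11 and 0.03.

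Of the meristem markers, homeobox genes of the knox class, 2 of 3 were above 0 on SAM1 with a median of 0.05. They were kn1, which marks the meristem and is off in leaf primordia, at -0.12 with 1 of 6 replicates above 0, knox7 at 0.05, and lg3 at 0.17 with 6 of 6 above 0. The markers thus lay on both sides of 0. On SAM3, 3 of 5 were above 0 as labelled and 2 after the exchange, with kn1 at -0.06 and -0.15.

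The lists for other cell types that a capture could hold had medians near 0 over all SAM1 replicates. These were 0.02 for 14 photosynthesis genes, 0.03 for 5 epidermis genes and -0.03 for 5 vascular genes. Their summed signal was higher in rgd2-R in 5, 5 and 2 of 6 replicates. In replicate 3, where nfd101 was highest, these medians were 0.03, 0.04 and 0.14. In replicates 2 and 6, where nfd106 was highest, the epidermis median was 0.23 and 0.20. The photosynthesis median there was -0.00 and -0.06, and the vascular median 0.05 and -0.15. The epidermis genes ran from gl8 at -0.03 to ocl4 at 0.21, which was above 0 in 6 of 6 replicates. The summed photosynthesis signal was 5460 to 12200 in rgd2-R and 5370 to 9340 in non-mutant. Some list genes were faint, with psah1, psan1 and the vascular gene BM1 at brightness percentiles 4.36, 8.91 and 9.83, which limits their ratios. The brighter photosynthesis gene lhcb5, at percentile 63.8, was at -0.87 in replicate 2, 0.67 in replicate 3 and 0.81 in replicate 6. OEE3, at percentile 69.0, was at 0.03 in replicate 3. On SAM3 the medians of the photosynthesis, epidermis and vascular lists were 0.01, 0.09 and -0.00 as labelled. After the exchange they were 0.01, -0.06 and -0.13. The epidermis genes on SAM3 ran from brk1 at -0.28 to dek1 at 0.25 as labelled, which gave -0.16 and 0.08 after the exchange.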

How the data were processed

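RNA of microdissected meristems was measured on the 2-colour spotted arrays SAM1 (19200 probes) and SAM3 (16000 probes), in 36 readings of 12 hybridised replicates. The deposited intensity values are mean and median signal and background per dye, which the authors had not corrected or normalized, per the file headers. The deposited natural log ratios were processed by the authors in a way not given in the sources used here, and were used as an alternative only, turned to rgd2-R over non-mutant. The number of arrays limits the precision.

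Here, mean signals were corrected with normexp (offset 50) and loess-normalized per reading in limma 3.58.1 (R 4.3.3). Values of the low, mid and high readings were then averaged within replicates. A genotype term and a dye term were fitted per array with lmFit and eBayes, two-sided, with Benjamini-Hochberg adjustment over all probes at 0.05. A signal over 2 times background counted as detected, and 65000 as saturated.

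Probes were named through the platform annotation and, by gene identifier, the RefSeq gene table of assembly Zm-B73-REFERENCE-NAM-5.0. Probes with several genes were left unnamed. The members and the gene lists were chosen with earlier results of these data known. The rule for named genes took all nfd probes, the 5 genes most correlated with an nfd gene over 6 replicates, the 2 highest and 2 lowest genes of each chromatin or replication list, and kn1. From it, the text gives likeness for nfd101 and nfd106 on SAM1 and for nfd101 on SAM3. For the other nfd genes it gives the highest r on SAM1 alone. A cyclotide gene matched by its letters was taken off the replication list.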

Additional observations from a re-analysis of the deposited data

Results flagged for a closer look

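Of 43 probe and gene values checked over 6 replicates, 2 had a replicate far from the other 5, and chance alone sets apart about 1 in 20 such sets. nfd101 probe 4512 on SAM1 stood at 0.99 in replicate 3, while its other replicates ran from 0.02 to 0.34. nfd106 probe 7304 on SAM1 stood at -0.23 in replicate 5, while its other replicates ran from 0.32 to 0.65.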

How the results depend on the processing

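On SAM1, nfd101 ran from 0.17 to 0.28 and nfd106 from 0.21 to 0.37 over the settings that kept all replicates, both above 0 throughout. Leaving out a replicate gave 0.14 (without replicate 3) to 0.35 for nfd101 and 0.20 to 0.31 for nfd106. Of the 24 nfd probes, 20 to 23 were above 0 in the settings that kept all replicates and 21 to 23 on leaving out a replicate. The share of all probes above 0 in these settings was not computed, so nothing is read from these counts. In none of the settings run on either array was an nfd probe called.

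The count of all SAM1 probes called, 0 in the setting reported, was 195 without background correction, 42 without the dimmest 25% of probes, 36 with the mid reading alone, 11 with median centring and 1 with the authors' table. Leaving out a replicate gave 0 to 2, with 2 without replicate 2. On SAM3 it was 0, and 2 with replicate 2 turned as well. Leaving out a replicate gave 0.11 to 0.16 for nfd106 on SAM3 and -0.05 to 0.12 for nfd101. nfd106 on SAM3 moved from 0.13 to 0.25 with the low reading alone, 0.02 with the high reading alone, 0.01 with the exchange and -0.05 with replicate 2 turned as well. Its value of 1.33 with median signals comes from probe 7470 in replicate 2, where the background model failed and gave 23.1. nfd101 on SAM3 ran from -0.04 to 0.19 over the settings that kept all replicates. It changed sign in 5 of 19 settings, which include leaving out a replicate. nfd110 on SAM3 was -0.35 with plain subtraction and -0.36 in the authors' table. On leaving out a replicate of SAM1, nfd102 gave -0.18 to -0.09, nfd104 0.04 to 0.17 and nfd110 -0.06 to 0.11. On SAM3 nfd104 gave -0.19 to -0.03 and nfd110 -0.09 to -0.02. The alternatives for nfd102, nfd104 and nfd110 were added after seeing the data. The cause of these shifts was otherwise not tested.

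The values fitted are ratios within a hybridisation and so are paired by construction. Beyond this, with the replicate number as a block, no paired analysis was possible because each number marks 1 ratio per array and SAM1 and SAM3 carry different probes. Faint probes are limited by background, and cross-hybridisation between related HMG genes was not tested because no probe sequence was used here.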
